A study of Mus musculus with 11 samples.

Results

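The serpins are a family of proteins that mostly inhibit serine proteases, and the array measured 47 serpin genes, each with 1 probe set of its own, among 19938 genes that had a probe set with a single gene symbol. Members were taken by name, as genes called Serpin with a clade letter from a to i and a number. Clade A held 14 of them, clade B 24, clades F and I 2 each, and clades C, D, E, G and H 1 each. A further 6 probe sets with serpin names were not members, because 5 were shared by several genes and 1 belonged to the pseudogene Serpina4-ps1. Most copies of the Serpina3 group, among other serpins, were not analysed here.

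RNA from whole liver of male C57/BL6 mice aged 8 to 9 weeks and fed chow was hybridised to 11 Affymetrix mouse whole-transcript arrays, 1 per sample. There were 3 wild-type samples (WT) and 3 samples from mice whose loxP-flanked Nemo gene was deleted in hepatocytes (NemoΔhepa). The other 2 genotypes carried the same hepatocyte deletion in combination with a constitutive knockout, of TRAIL in 2 samples (NemoΔhepa/TRAIL-/-) and of TNFR1 in 3 samples (NemoΔhepa/TNFR1-/-). Nemo is the regulatory subunit of the kinase complex that activates NF-κB, TRAIL is a death ligand, and TNFR1 binds tumour necrosis factor. The sources used here do not give the promoter that drove the deletion, or say whether WT mice carried the loxP sites. No group has the TRAIL or the TNFR1 knockout alone. The array names carry a code that differs in each double knockout from that of WT and NemoΔhepa, so that whatever it marks cannot be told apart from the added knockout.

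A serpin traps its target protease by offering a reactive loop as bait, and the cleaved serpin then changes shape and locks the enzyme in a dead complex. Hepatocytes secrete most serpins of blood plasma, including α1-antitrypsin of clade A, antithrombin of clade C, heparin cofactor II of clade D and the C1 inhibitor of clade G. Clade B serpins lack a classical secretion signal and mostly stay inside cells, where they guard against leaked granule and lysosomal proteases, and a few members of other clades inhibit nothing and carry hormones or fold collagen.

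Hepatocyte markers stood at a mean of 13.20 to 13.32 log2 units on every array, and 0 of 10 passed the test in any genotype against WT. Of the targeted genes, Ikbkg, which encodes Nemo, differed from WT by -0.24, -0.41 and -0.45 log2 units in the 3 Nemo-deficient genotypes (adjusted p of 0.106, 0.0239 and 0.00818). Tnfsf10 differed by -0.65 in NemoΔhepa/TRAIL-/- (adjusted p = 0.0749) and Tnfrsf1a by 0.07 in NemoΔhepa/TNFR1-/- (adjusted p = 0.67), and whether these probe sets cover the deleted parts is not known here. Of all arrays, WT replicate 3 differed in its makeup: the mean of 11 pancreatic acinar markers was 11.5 there, 5.83 and 5.71 on the other WT arrays and 5.46 to 5.64 on the Nemo-deficient arrays, with 0 of 11 called. All differences from WT rest in part on that array. Values without it are given for the serpins called, and for other genes and gene lists below where leaving it out changed a call or moved a printed difference by over 1.5 times. Without it Tnfsf10 was called in NemoΔhepa/TRAIL-/-, at -0.80 (adjusted p = 0.0348). In whole tissue, fewer cells of a type and less RNA per cell cannot be told apart. The labels do not say that the samples of a group came from separate mice, so a p-value reflects the spread between these samples alone. A value below is the log2 signal of a probe set. A gene was called where its adjusted p in limma, over all 35556 probe sets, was under 0.05.

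Against WT, with all 11 arrays in the fit, a larger share of serpins than of all probe sets passed the test. In NemoΔhepa 9 of 47 serpins were called (19.1%), 5 higher and 4 lower, where 9.29% of all probe sets were called, 6.08% higher and 3.21% lower. In NemoΔhepa/TRAIL-/- 8 serpins were called, 5 higher and 3 lower (17.0%), against 7.55% of all probe sets, 4.91% higher and 2.64% lower. In NemoΔhepa/TNFR1-/- 8 serpins were called, 4 higher and 4 lower (17.0%), against 9.18% of all probe sets, 5.83% higher and 3.35% lower. Over the 19938 genes with 1 probe set each the shares called were 12.6%, 10.2% and 12.1%, with 8.51%, 6.88% and 8.18% higher. Rises made up 10.6%, 10.6% and 8.51% of serpins, in NemoΔhepa and NemoΔhepa/TNFR1-/- near the share of genes that rose. Falls made up 8.51%, 6.38% and 8.51% of serpins, beside 4.08%, 3.34% and 3.89% of those genes. The serpin counts were 8, 8 and 5 without WT replicate 3. The share of all probe sets called without that array was not counted. Whether the serpin share is still the larger one there is therefore not known, least of all in NemoΔhepa/TNFR1-/-. The 3 comparisons use the same WT arrays, and no test set the family against other genes. In the middle the family moved little: the median serpin differed by -0.09, -0.07 and -0.08 log2 units, and the median probe set by -0.05, -0.05 and -0.04.

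In all, 12 serpins were called in at least 1 comparison and 35 in none. The share of all probe sets called in at least 1 of the 6 comparisons was not counted. The 12 can therefore not be set beside the shares of single comparisons. Of the 12, 6 were higher than WT in their calls (Serpina3n, Serpinb6a, Serpinb6b, Serpinb8, Serpinb10 and Serpinh1) and 6 were lower (Serpina1c, Serpina9, Serpina11, Serpina12, Serpinb1a and Serpind1). All 8 Nemo-deficient arrays lay above every WT array for 5 serpins, which was so for 7.79% of all probe sets, and below every WT array for 7 serpins, which was so for 7.14%. Groups of 2 or 3 arrays often lie apart. WT did not overlap with NemoΔhepa, NemoΔhepa/TRAIL-/- and NemoΔhepa/TNFR1-/- for 10758, 12749 and 9052 of all 35556 probe sets. NemoΔhepa did not overlap with NemoΔhepa/TRAIL-/- for 6611 and with NemoΔhepa/TNFR1-/- for 4420. The double knockouts did not overlap each other for 6330.

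**Figure D1:**
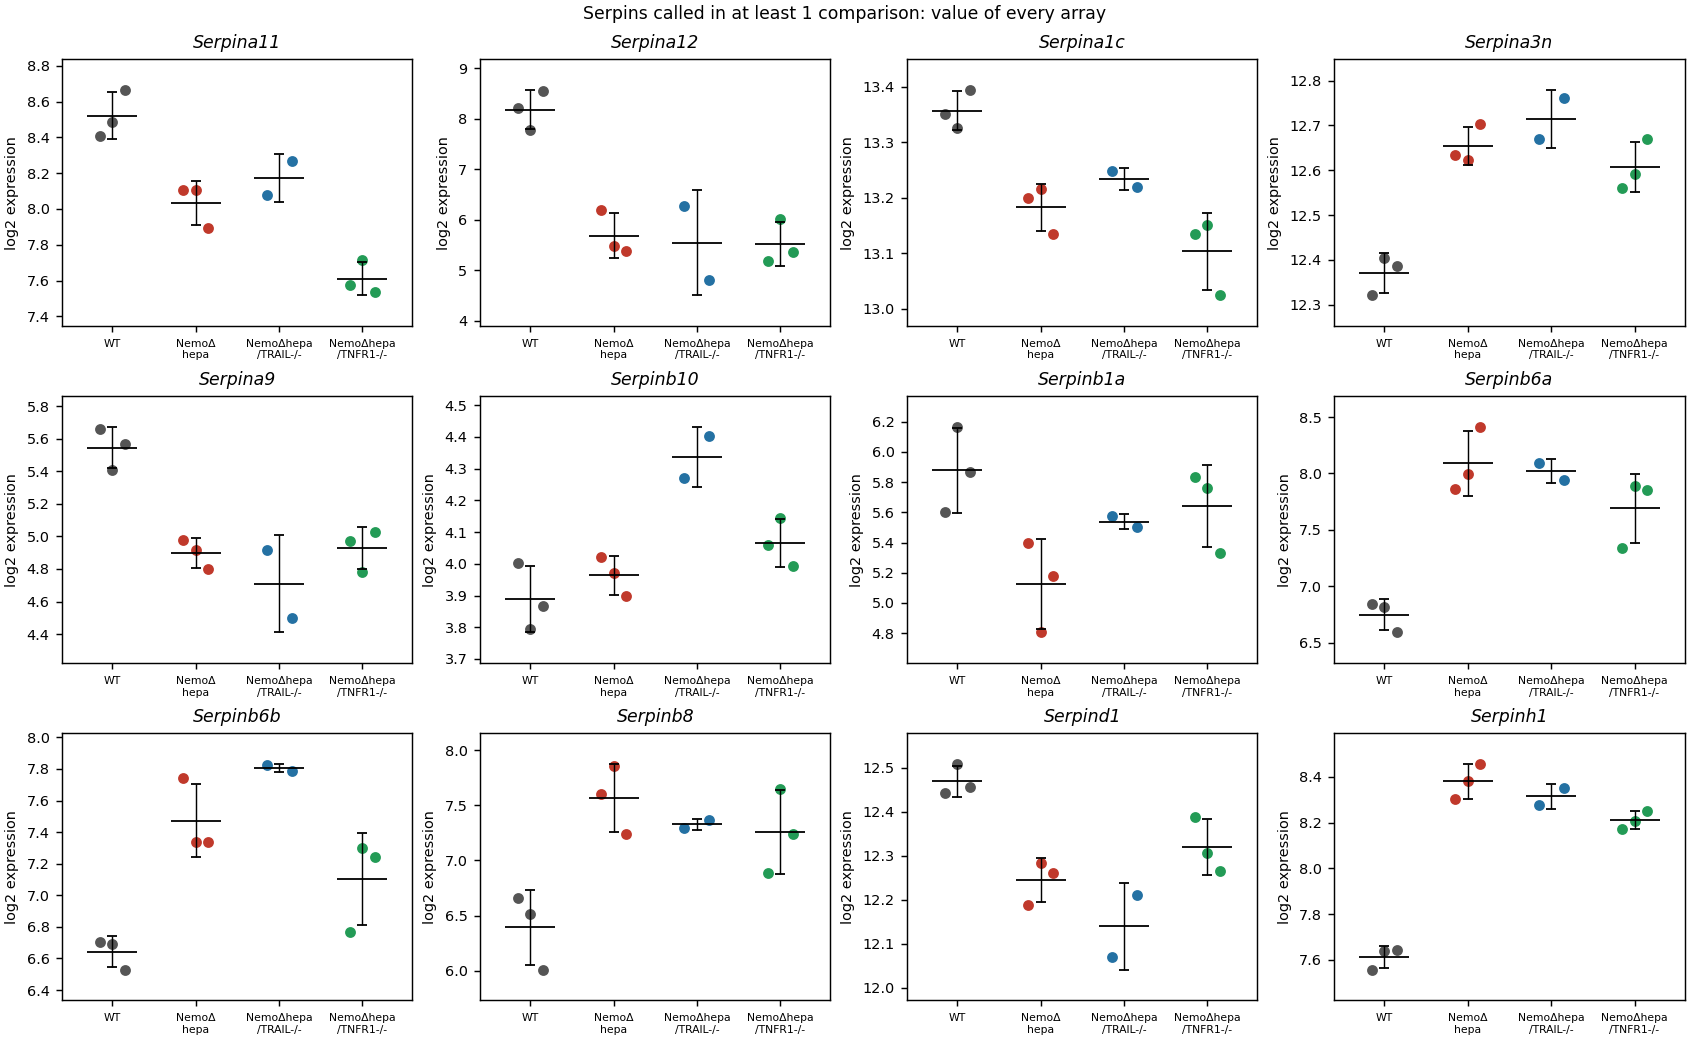
Log2 signal of the 12 serpins called in at least 1 comparison, 1 panel per gene, with 1 point per array, a bar at the mean of each genotype and its SD (n = 3, for NemoΔhepa/TRAIL-/- n = 2). Serpina12 drops from between 7.77 and 8.55 in WT to at most 6.27 elsewhere, while Serpinb6a and Serpinh1 sit above WT on all 8 Nemo-deficient arrays.

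Clade A held the largest fall in the family. Serpina12 encodes vaspin, a secreted inhibitor of kallikrein 7. Its signal was 8.20, 7.77 and 8.55 in WT, 6.20, 5.47 and 5.39 in NemoΔhepa, 6.27 and 4.81 in NemoΔhepa/TRAIL-/-, and 5.18, 6.01 and 5.35 in NemoΔhepa/TNFR1-/-. Every Nemo-deficient array lay below every WT array, by at least 1 log2 unit, and the Nemo-deficient genotypes overlapped each other. The fall in NemoΔhepa was 2.49 ± 0.39 log2 units (SE, adjusted p = 0.00441), to 0.178 times the WT signal. In NemoΔhepa/TRAIL-/- the difference was -2.64 ± 0.44 (adjusted p = 0.0071) and in NemoΔhepa/TNFR1-/- -2.66 ± 0.39 (adjusted p = 0.00326). Without WT replicate 3 these were -2.30, -2.45 and -2.47. In a fit of WT and NemoΔhepa/TRAIL-/- alone, Serpina12 did not pass (adjusted p = 0.0551).

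Serpina9 encodes centerin, a serpin known from germinal centre B cells. It measured 5.66, 5.41 and 5.57 in WT, 4.98, 4.92 and 4.80 in NemoΔhepa, 4.92 and 4.50 in NemoΔhepa/TRAIL-/- and 4.97, 4.78 and 5.03 in NemoΔhepa/TNFR1-/-. The Nemo-deficient arrays were again all below WT and overlapped among themselves. It fell by 0.65 ± 0.12 in NemoΔhepa (adjusted p = 0.00941), by 0.84 ± 0.13 in NemoΔhepa/TRAIL-/- (adjusted p = 0.00601) and by 0.62 ± 0.12 in NemoΔhepa/TNFR1-/- (adjusted p = 0.0119). Without WT replicate 3 the differences were -0.63, -0.82 and -0.60, and with WT and NemoΔhepa/TRAIL-/- alone in the fit the adjusted p was 0.0597. Of 3 measured B cell markers, 0 passed in any genotype against WT, and their mean lay between 5.72 and 6.05 on all arrays. The part of B cells in the Serpina9 signal was not tested.

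Serpina11 was lower than WT in NemoΔhepa and in NemoΔhepa/TNFR1-/-. It measured 8.41, 8.49 and 8.66 in WT, 8.10, 8.10 and 7.89 in NemoΔhepa, 8.08 and 8.27 in NemoΔhepa/TRAIL-/- and 7.58, 7.71 and 7.54 in NemoΔhepa/TNFR1-/-. The NemoΔhepa/TNFR1-/- arrays were the lowest of all and overlapped with no other genotype. It fell by 0.49 ± 0.10 in NemoΔhepa (adjusted p = 0.0129) and by 0.91 ± 0.10 in NemoΔhepa/TNFR1-/- (adjusted p = 0.000824), to 0.532 times WT. In NemoΔhepa/TRAIL-/- the difference of -0.35 ± 0.11 did not pass (adjusted p = 0.0919). The differences called were -0.42 and -0.84 without WT replicate 3, and the call in NemoΔhepa was lost without NemoΔhepa replicate 3 (adjusted p = 0.0523).

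Serpina11, Serpina9 and Serpina12 are direct neighbours, with 0 annotated genes between them, in a group of 41 genes and pseudogenes on chromosome 12 in RefSeq's GRCm38 annotation, where they are entries 19 to 21. On either side, the nearest measured members were Serpina1c, at -0.17 in NemoΔhepa, and Serpina5, the protein C inhibitor, at 0.12 (adjusted p = 0.106 and 0.714). Serpina1c was called lower in NemoΔhepa/TNFR1-/- (-0.25, adjusted p = 0.0281). The measured pseudogene Serpina4-ps1, not a member, lies between Serpina12 and Serpina5. It differed by -2.25, -2.79 and -4.05 in the 3 genotypes (adjusted p of 0.199, 0.185 and 0.0344). Both calls in NemoΔhepa/TNFR1-/- were lost without WT replicate 3. Serpina3n, the last gene of the group, rose. RefSeq promoter windows (GRCm38.p6, 250 bases before the start) were at hand for Serpina11 and Serpina12 and are shown because these neighbours fell together. Both are on the minus strand and written 5′ to 3′, the first from chr12:103989958-103990207 and the second from chr12:104044444-104044693. Capitals mark a match to TTCNNNGAA, the core of the site that STAT factors recognise, 51 to 43 bases before the upstream of 2 starts of Serpina11.
Serpina11: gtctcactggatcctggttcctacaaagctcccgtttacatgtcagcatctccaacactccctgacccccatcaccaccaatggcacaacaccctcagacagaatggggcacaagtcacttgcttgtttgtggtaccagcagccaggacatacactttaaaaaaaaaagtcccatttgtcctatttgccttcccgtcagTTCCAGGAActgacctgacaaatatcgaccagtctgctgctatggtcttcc
Serpina12: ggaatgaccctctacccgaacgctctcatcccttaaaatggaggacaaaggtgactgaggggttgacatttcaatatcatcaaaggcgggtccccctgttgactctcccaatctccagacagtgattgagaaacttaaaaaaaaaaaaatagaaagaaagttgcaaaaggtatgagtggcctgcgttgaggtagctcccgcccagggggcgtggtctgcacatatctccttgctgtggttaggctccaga
Of the 250 bases before Serpina12, 0 motifs searched had a match. A match describes letters only.

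**Figure D2:**
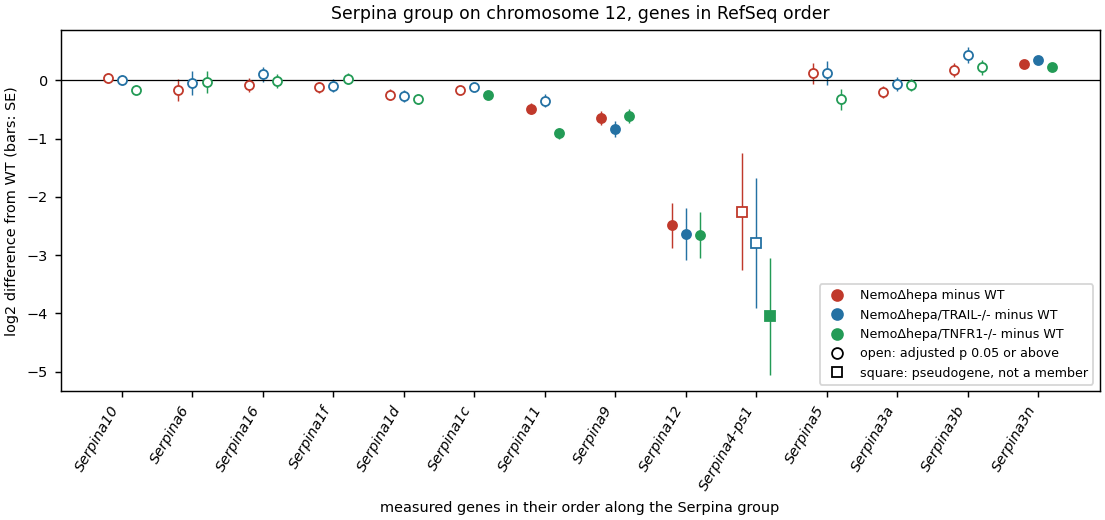
Difference from WT in log2 units (± SE) of the measured serpins of the chromosome 12 group, in RefSeq order along the horizontal axis, for the 3 Nemo-deficient genotypes; the pseudogene Serpina4-ps1, not a member, is drawn as squares. The neighbours Serpina11, Serpina9 and Serpina12 lie below 0 in every genotype, and Serpina3n at the end lies above 0.

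The α1-antitrypsin genes, whose product inhibits neutrophil elastase, differed little on this log2 scale. Serpina1c measured 13.35, 13.33 and 13.39 in WT, 13.20, 13.21 and 13.13 in NemoΔhepa, 13.25 and 13.22 in NemoΔhepa/TRAIL-/- and 13.13, 13.15 and 13.02 in NemoΔhepa/TNFR1-/-. Each Nemo-deficient array was below WT. The fall of 0.25 ± 0.06 in NemoΔhepa/TNFR1-/- passed (adjusted p = 0.0281), and the differences in NemoΔhepa (-0.17, adjusted p = 0.106) and NemoΔhepa/TRAIL-/- (-0.12, adjusted p = 0.333) did not. That call held in 6 of 11 fits without a single array, and it was lost without any single WT array or without NemoΔhepa/TNFR1-/- replicate 2 or 3 (adjusted p up to 0.103, and 0.0724 at -0.23 without WT replicate 3). With quantile normalization its adjusted p was 0.0525, and with WT and NemoΔhepa/TNFR1-/- alone 0.111. Serpina1d had means of 12.73 ± 0.08 in WT (SD, n = 3), 12.49 ± 0.06 in NemoΔhepa (n = 3), 12.46 ± 0.12 in NemoΔhepa/TRAIL-/- (n = 2) and 12.41 ± 0.14 in NemoΔhepa/TNFR1-/- (n = 3), and none of its differences passed (adjusted p of 0.122, 0.151 and 0.0522). The copies of this gene are nearly identical, so a probe set of one can take up RNA of another, and 2 further probe sets were shared by Serpina1a to Serpina1e.

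Serpina3n was the clade A serpin that rose. It is a mouse counterpart of α1-antichymotrypsin, an acute phase protein, and its copies are also close in sequence. Its signal was 12.32, 12.41 and 12.39 in WT, 12.63, 12.62 and 12.70 in NemoΔhepa, 12.67 and 12.76 in NemoΔhepa/TRAIL-/- and 12.56, 12.59 and 12.67 in NemoΔhepa/TNFR1-/-. All 8 Nemo-deficient arrays were above WT, and the 3 genotypes overlapped. The rise was 0.28 ± 0.06 in NemoΔhepa (adjusted p = 0.0184, 1.22-fold), 0.34 ± 0.07 in NemoΔhepa/TRAIL-/- (adjusted p = 0.0147) and 0.24 ± 0.06 in NemoΔhepa/TNFR1-/- (adjusted p = 0.0406). These were 0.29, 0.35 and 0.24 without WT replicate 3, the last not passing (adjusted p = 0.0726). In NemoΔhepa the call was lost without WT replicate 1 or NemoΔhepa replicate 2 or 3 (adjusted p of 0.0584, 0.0506 and 0.0768), and in NemoΔhepa/TRAIL-/- without either array of that group (0.0617 and 0.107) or with WT alone beside it (0.0975). In NemoΔhepa/TNFR1-/- it held in 1 of 11 fits that left out 1 array (adjusted p up to 0.14), and was lost with each array centred on its median (0.0659) and with WT alone beside it (0.126).

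The hormone carriers of clade A, which inhibit no protease, were not called. Serpina7, thyroxine-binding globulin, had the largest difference in its clade among serpins not called anywhere. It measured 7.38, 7.81 and 8.26 in WT, 9.47, 8.74 and 8.55 in NemoΔhepa, 9.17 and 9.09 in NemoΔhepa/TRAIL-/- and 7.65, 8.81 and 8.15 in NemoΔhepa/TNFR1-/-. NemoΔhepa and NemoΔhepa/TRAIL-/- lay above WT, and NemoΔhepa/TNFR1-/- overlapped with WT. The differences of 1.10 ± 0.33, 1.31 ± 0.37 and 0.39 ± 0.33 did not pass (adjusted p of 0.0703, 0.0659 and 0.535). They were 1.33, 1.53 and 0.61 without WT replicate 3 (adjusted p of 0.0578, 0.0532 and 0.361). Serpina6, corticosteroid-binding globulin, differed by -0.17 in NemoΔhepa (adjusted p = 0.605). Over clade A, 4 of 14 were called in NemoΔhepa (1 higher, 3 lower), 3 in NemoΔhepa/TRAIL-/- (1 and 2) and 5 in NemoΔhepa/TNFR1-/- (1 and 4), with medians of -0.15, -0.06 and -0.12. The single rise is 7.14% of the clade, near the share of all genes that rose, and the 28.6%, 21.4% and 35.7% called in all stand beside 12.6%, 10.2% and 12.1% of all genes.

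**Figure D3:**
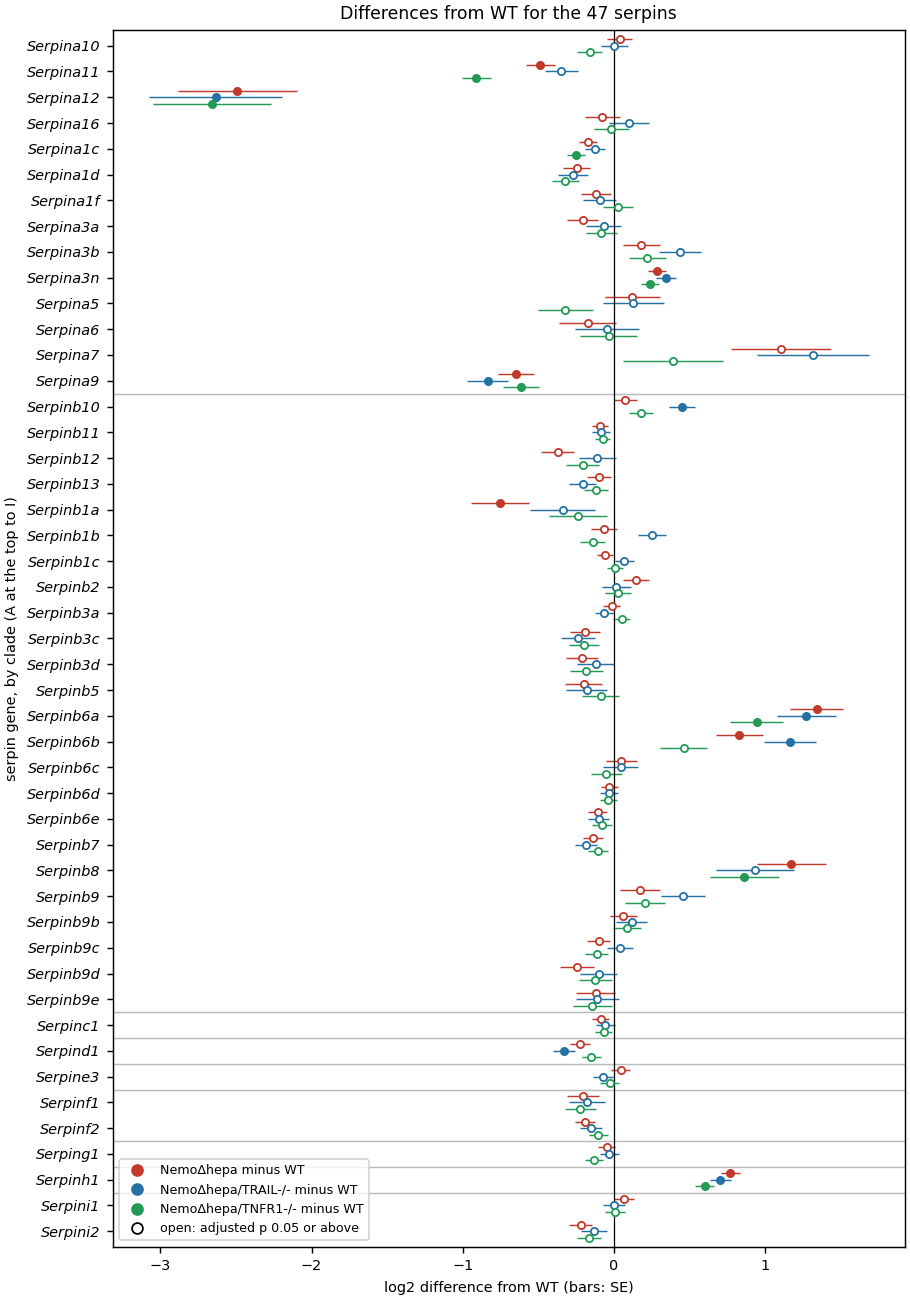
Differences from WT in log2 units (± SE) of all 47 serpins, ordered by clade, with 1 colour per Nemo-deficient genotype; filled points passed at an adjusted p under 0.05. Filled points lie on both sides of 0 in clade A, and in clade B the filled points are those of Serpinb6a, Serpinb6b, Serpinb8 and Serpinb10 above 0 and Serpinb1a below it.

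Of the calls in clade B 1 was a fall, and over all probe sets too more were called higher than lower (2161 and 1143 in NemoΔhepa). In NemoΔhepa 4 of 24 were called, 3 higher and 1 lower, in NemoΔhepa/TRAIL-/- 3, all higher, and in NemoΔhepa/TNFR1-/- 2, both higher, with medians of -0.08, -0.05 and -0.08. These are 16.7%, 12.5% and 8.33% of the clade. Beside them stand 9.29%, 7.55% and 9.18% of all probe sets and 12.6%, 10.2% and 12.1% of all genes. For a clade of 24 the first 2 shares are near those of all genes, and the last is below. Serpinb6a, an intracellular inhibitor of trypsin-like proteases and cathepsin G, measured 6.84, 6.81 and 6.59 in WT, 7.86, 7.99 and 8.41 in NemoΔhepa, 8.09 and 7.94 in NemoΔhepa/TRAIL-/- and 7.34, 7.89 and 7.85 in NemoΔhepa/TNFR1-/-. All 8 Nemo-deficient arrays were above WT. It rose 2.53-fold in NemoΔhepa (1.34 ± 0.18 log2 units, adjusted p = 0.00181), 2.41-fold in NemoΔhepa/TRAIL-/- (1.27 ± 0.20, adjusted p = 0.00516) and 1.92-fold in NemoΔhepa/TNFR1-/- (0.94 ± 0.18, adjusted p = 0.00939). Without WT replicate 3 the differences were 1.26, 1.19 and 0.86. The call in NemoΔhepa/TRAIL-/- was lost without NemoΔhepa/TRAIL-/- replicate 1 (adjusted p = 0.0549).

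Its paralog Serpinb6b, an inhibitor of granzyme A, measured 6.71, 6.69 and 6.53 in WT, 7.74, 7.34 and 7.34 in NemoΔhepa, 7.82 and 7.79 in NemoΔhepa/TRAIL-/- and 6.77, 7.30 and 7.24 in NemoΔhepa/TNFR1-/-. NemoΔhepa/TRAIL-/- was highest and overlapped with no other genotype, and the lowest NemoΔhepa/TNFR1-/- array lay just above WT. The rise was 1.78-fold in NemoΔhepa (0.83 ± 0.15, adjusted p = 0.00921) and 2.24-fold in NemoΔhepa/TRAIL-/- (1.16 ± 0.17, adjusted p = 0.00423). In NemoΔhepa/TNFR1-/- the difference of 0.46 ± 0.15 did not pass (adjusted p = 0.101). Without WT replicate 3 the values called were 0.77 and 1.11. The paralogs Serpinb6c, Serpinb6d and Serpinb6e, all below the 25th percentile of signals, were not called in any comparison and differed by 0.05, -0.03 and -0.11 in NemoΔhepa. For Serpinb6c and Serpinb6d the sign turned without WT replicate 3, at values within 0.01 of 0. How far probes of one paralog bind RNA of another was not tested.

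The upstream windows of the risen paralogs are shown to set them side by side, from chr13:34002795-34003044 on the minus strand for the upstream of 2 starts of Serpinb6a, and from chr13:32965011-32965260 on the plus strand for Serpinb6b. Capitals mark the same STAT-type match, 77 to 69 bases before this start of Serpinb6a.
Serpinb6a: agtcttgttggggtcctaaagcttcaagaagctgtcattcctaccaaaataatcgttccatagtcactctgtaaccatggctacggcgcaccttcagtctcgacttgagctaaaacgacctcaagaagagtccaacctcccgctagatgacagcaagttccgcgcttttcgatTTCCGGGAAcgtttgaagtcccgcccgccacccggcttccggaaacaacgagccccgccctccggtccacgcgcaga
Serpinb6b: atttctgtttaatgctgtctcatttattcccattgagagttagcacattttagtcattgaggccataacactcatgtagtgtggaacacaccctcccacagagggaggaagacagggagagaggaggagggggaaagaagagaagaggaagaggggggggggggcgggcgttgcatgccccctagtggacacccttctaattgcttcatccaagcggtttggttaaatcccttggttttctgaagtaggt

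Windows were at hand for 41 of the 47 serpins (49 windows) and 10 of the 12 called ones, and 5 motifs were searched on both strands, where matches to different motifs may overlap. TTCNNNGAA was in 6 serpin windows and in 7.02% of all 32851 windows. Among called serpins, Serpina11 and Serpinb6a carried it. For Serpina11 the same site lies in both of its overlapping windows, which are counted separately. For Serpinb6a the upstream window held a match and the downstream window did not. GGANNTTCC, the inner part of an NF-κB type site, was in 2 serpin windows, of genes that were not called, and in 3.59% of all. CAAAGTCCA, an HNF4 type site, was in 0 and in 0.384% of all. The heat shock type GAANNTTC was in 2 serpin windows and 6.69% of all, and TATAAA in 14 and 12.4% of all.

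Serpinb8, an intracellular inhibitor of furin, measured 6.66, 6.52 and 6.01 in WT, 7.60, 7.85 and 7.24 in NemoΔhepa, 7.29 and 7.36 in NemoΔhepa/TRAIL-/- and 6.88, 7.64 and 7.24 in NemoΔhepa/TNFR1-/-. The Nemo-deficient arrays all lay above WT and overlapped each other. It rose 2.25-fold in NemoΔhepa (1.17 ± 0.23, adjusted p = 0.012, and 0.98 without WT replicate 3) and by 0.86 ± 0.23 in NemoΔhepa/TNFR1-/- (adjusted p = 0.0459), and its difference of 0.93 ± 0.26 in NemoΔhepa/TRAIL-/- did not pass (adjusted p = 0.059). The call in NemoΔhepa/TNFR1-/- held in 2 of 11 fits that left out 1 array (adjusted p up to 0.145, and 0.121 at 0.67 without WT replicate 3). It was also lost with quantile normalization (0.0502), median centring (0.0508) and WT alone beside it (0.107).

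Serpinb1a, an inhibitor of leukocyte elastase, was the clade B serpin that fell. It measured 5.60, 6.17 and 5.87 in WT, 5.40, 4.80 and 5.18 in NemoΔhepa, 5.57 and 5.50 in NemoΔhepa/TRAIL-/- and 5.83, 5.76 and 5.33 in NemoΔhepa/TNFR1-/-. NemoΔhepa lay below WT, while NemoΔhepa/TNFR1-/- overlapped with both. It fell by 0.75 ± 0.19 in NemoΔhepa (adjusted p = 0.0391), and the differences of -0.34 and -0.24 in the double knockouts did not pass (adjusted p of 0.42 and 0.514). The call held in 4 of 11 fits without a single array; it was lost without WT replicate 2 or 3, NemoΔhepa replicate 2 or 3, either NemoΔhepa/TRAIL-/- array or NemoΔhepa/TNFR1-/- replicate 2 (adjusted p up to 0.122, and 0.0831 at -0.76 without WT replicate 3). With WT and NemoΔhepa alone the adjusted p was 0.0772.

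Serpinb10 encodes bomapin, a serpin of blood-forming cells, and its signal was below the 25th percentile of all probe sets. It measured 4.0, 3.79 and 3.87 in WT, 4.02, 3.97 and 3.90 in NemoΔhepa, 4.27 and 4.40 in NemoΔhepa/TRAIL-/- and 4.06, 4.15 and 3.99 in NemoΔhepa/TNFR1-/-. Both NemoΔhepa/TRAIL-/- arrays were above all others. The rise there was 0.45 ± 0.09 (adjusted p = 0.013, and 0.44 without WT replicate 3), and the differences in NemoΔhepa (0.08) and NemoΔhepa/TNFR1-/- (0.18) did not pass (adjusted p of 0.582 and 0.207). It was lost without either NemoΔhepa/TRAIL-/- array (adjusted p of 0.052 and 0.0993) and with WT alone beside that group (0.0887). Serpinb9, which inhibits granzyme B, differed by 0.17 in NemoΔhepa, 0.45 in NemoΔhepa/TRAIL-/- and 0.21 in NemoΔhepa/TNFR1-/- without passing (adjusted p of 0.45, 0.101 and 0.394). Its differences were 0.01, 0.29 and 0.05 without WT replicate 3 (adjusted p of 0.958, 0.133 and 0.822). The largest difference in NemoΔhepa among clade B serpins not called anywhere was that of Serpinb12, at -0.37 ± 0.11 (adjusted p = 0.066).

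Beside these clade B values, markers of other cells moved with genotype. The mean of 7 macrophage and monocyte markers was 6.97 to 7.08 in WT, 8.46 to 8.67 in NemoΔhepa, 8.60 to 8.67 in NemoΔhepa/TRAIL-/- and 8.21 to 8.72 in NemoΔhepa/TNFR1-/-, with 6 of 7 called higher in each. Neutrophil markers ran from 5.21 to 5.48 over all arrays, and 0 of 7 were called in any genotype. Of 6 T and NK cell markers 1, 1 and 4 rose, with means of 5.60 to 5.72 in WT and 5.86 to 6.44 in the others. Of 5 Kupffer cell markers 3, 2 and 3 rose and 1 fell in NemoΔhepa/TRAIL-/-; their mean was 8.37 to 8.67 in WT and 8.81 to 9.20 in the others. Of 5 mast cell markers 1 rose in each genotype and 1 fell in NemoΔhepa, and of 4 platelet and megakaryocyte markers 1 rose in NemoΔhepa/TNFR1-/-; their means stayed between 5.23 and 5.47, and between 6.17 and 6.46. The T and NK cell markers called higher were 0, 1 and 2 without WT replicate 3, and those of Kupffer cells 2, 1 and 1. Mast cell markers were then called in NemoΔhepa alone (1 higher), and 1 platelet marker in NemoΔhepa as well. The part of these cells in the serpin values was not tested.

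The single member of clade H had the smallest adjusted p of the family in NemoΔhepa. Serpinh1 encodes HSP47, a chaperone of the endoplasmic reticulum that binds procollagen and inhibits no protease. It measured 7.56, 7.64 and 7.64 in WT, 8.30, 8.38 and 8.46 in NemoΔhepa, 8.28 and 8.35 in NemoΔhepa/TRAIL-/- and 8.17, 8.21 and 8.25 in NemoΔhepa/TNFR1-/-. Every Nemo-deficient array stood above WT, and all NemoΔhepa/TNFR1-/- arrays stood below all others that lacked Nemo. The rise was 0.77 ± 0.06 in NemoΔhepa (adjusted p = 0.000351, 1.7-fold), 0.70 ± 0.07 in NemoΔhepa/TRAIL-/- (adjusted p = 0.000901) and 0.60 ± 0.06 in NemoΔhepa/TNFR1-/- (adjusted p = 0.00079). Without WT replicate 3 it was 0.78, 0.72 and 0.61. The window before its start, with 0 motif matches, came from the minus strand of chr7:99353240-99353489.
Serpinh1: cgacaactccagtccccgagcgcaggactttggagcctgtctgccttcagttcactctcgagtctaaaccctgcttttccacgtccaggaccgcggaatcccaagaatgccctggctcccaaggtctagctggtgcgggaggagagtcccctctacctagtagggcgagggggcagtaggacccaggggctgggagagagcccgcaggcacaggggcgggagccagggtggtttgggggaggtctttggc

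Stellate cell markers, like Serpinh1, were higher than in WT. Their mean was 8.65 to 8.89 in WT, 9.80 to 9.98 in NemoΔhepa, 9.66 to 9.82 in NemoΔhepa/TRAIL-/- and 9.67 to 10.03 in NemoΔhepa/TNFR1-/-, with 8, 7 and 8 of 8 called higher. Their median difference from WT was 1.05, 0.86 and 1.09 log2 units. The markers include collagen genes, the clients of HSP47. Markers of dividing cells had means of 5.39 to 6.08 in WT and 7.59 to 8.74 in the others, with 4 of 4 called higher in each genotype. Of 5 mesothelial markers 2 rose in each genotype (8.30 to 8.39 in WT, 8.63 to 8.99 elsewhere). Of 5 cholangiocyte markers 1, 2 and 0 rose (6.14 to 6.43, and 6.44 to 7.20). Of 6 sinusoidal endothelial markers 0 were called in NemoΔhepa, 2 rose and 1 fell in NemoΔhepa/TRAIL-/- and 1 rose in NemoΔhepa/TNFR1-/- (9.53 to 9.56, and 9.55 to 9.80). The cholangiocyte markers called were 0, 1 and 0 without WT replicate 3, and 1 endothelial marker rose and 1 fell in NemoΔhepa and in NemoΔhepa/TNFR1-/-. The part of these cells in the level of Serpinh1 was not tested.

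Among the plasma inhibitors of clotting, fibrinolysis and complement, Serpind1 was called. This gene encodes heparin cofactor II, an inhibitor of thrombin, and measured 12.44, 12.51 and 12.46 in WT, 12.19, 12.28 and 12.26 in NemoΔhepa, 12.07 and 12.21 in NemoΔhepa/TRAIL-/- and 12.39, 12.31 and 12.26 in NemoΔhepa/TNFR1-/-. All Nemo-deficient arrays lay below WT. The fall passed in NemoΔhepa/TRAIL-/- (-0.33 ± 0.07, adjusted p = 0.0237, and -0.34 without WT replicate 3), and the differences of -0.22 in NemoΔhepa and -0.15 in NemoΔhepa/TNFR1-/- did not (adjusted p of 0.061 and 0.204). That call was lost without WT replicate 2 (adjusted p = 0.0702), without NemoΔhepa/TRAIL-/- replicate 1 (0.193) and with WT alone beside that group (0.12).

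The others were not called in any comparison. Serpinc1, antithrombin, had means of 12.88 ± 0.02 in WT (SD, n = 3) and 12.79 ± 0.03 in NemoΔhepa (n = 3), a difference of -0.09 ± 0.06 SE (adjusted p = 0.364). Serping1, the C1 inhibitor, differed by -0.05 in NemoΔhepa, with a 95% interval of -0.18 to 0.08 (adjusted p = 0.629), and by -0.02 without WT replicate 3. In clade F, Serpinf2, α2-antiplasmin, differed by -0.19 ± 0.07 (adjusted p = 0.111), and Serpinf1, the non-inhibitory pigment epithelium-derived factor, by -0.21 ± 0.10 (adjusted p = 0.254). Serpine3 of clade E differed by 0.04 (adjusted p = 0.695), and Serpini2 of clade I, a serpin of the pancreas, by -0.22 ± 0.08 (adjusted p = 0.117). Its highest value, 3.55, was that of WT replicate 3, the array with high acinar markers, and its signal was below the 25th percentile. The other WT arrays, at 3.34 and 3.42, also lay above the NemoΔhepa arrays, at 3.16 to 3.29. Without WT replicate 3 the difference was -0.17 (adjusted p = 0.259). The part of acinar RNA in this value was not tested.

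By signal, calls were fewest among the low probe sets, for serpins as for all probe sets. A signal of different probe sets is not a common measure of RNA amount, and the table gives no detection call, so the classes below are classes of signal. Of 21 serpins below the 25th percentile of all probe sets (4.78), 17 were of clade B, and 1, Serpinb10, was called in some comparison. In NemoΔhepa 0 of the 21 were called, beside 1.79% of all probe sets of that class. Their largest difference from WT was 0.45 log2 units. Between the 25th and 50th percentile (6.29), 2 of 8 were called in NemoΔhepa, Serpina9 and Serpinb1a, beside 5.19%. Between the 50th and 90th percentile, 6 of 8 were called in NemoΔhepa, 4 higher and 2 lower, where 15.2% of all probe sets of that class were; Serpina7 and Serpinb9 were the other 2. Serpina12 was only just in that class, because its mean over all arrays includes the low Nemo-deficient ones. Above the 90th percentile (9.71), 3 of 10 were called in some comparison, Serpina1c, Serpina3n and Serpind1. For calls in some comparison, the share of all probe sets of a class was not counted. In NemoΔhepa 1 of the 10 was called, beside 14.7% of all probe sets of that class. These 10 hold the main plasma inhibitors and none of clade B, and differed from WT by at most 0.34 log2 units. Their signals reached 13.39 for Serpina1c, and the highest value in the table was 14.4; how much the scale is compressed there was not tested.

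**Figure D4:**
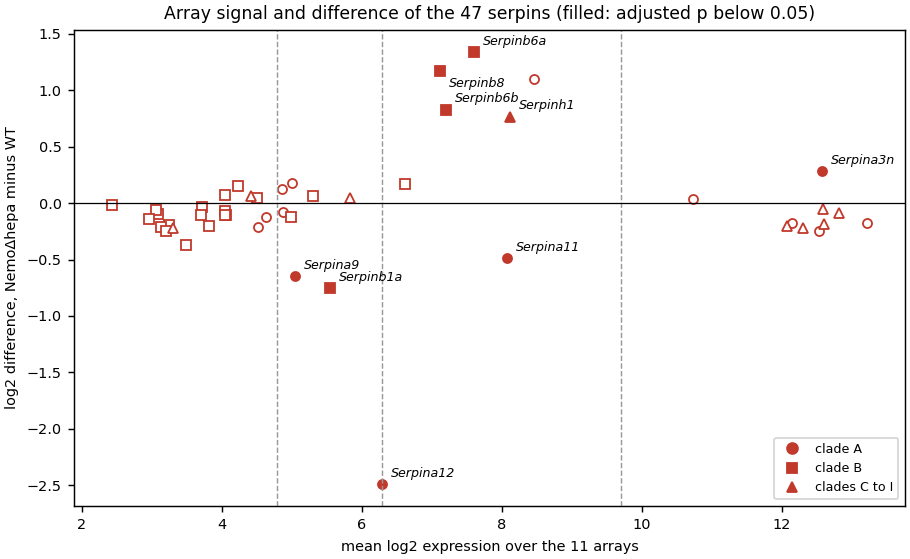
Mean log2 signal over the 11 arrays (horizontal axis) against the NemoΔhepa minus WT difference in log2 units (vertical axis), 1 point per serpin, with dashed lines at the 25th, 50th and 90th percentile of all probe sets (4.78, 6.29 and 9.71). Differences beyond 1 log2 unit lie, with Serpina12 on the line of the 50th, between the 50th and 90th percentile, and the points to the right of the last line lie close to 0.

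The arrays of a genotype agreed closely for most serpins. The within-group SD of a serpin was 0.107 log2 units in the median, against 0.127 for all probe sets, and ran from 0.022 to 0.556. Serpina12 had the highest, and its NemoΔhepa/TRAIL-/- arrays alone were 6.27 and 4.81.

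Comparing the double knockouts with NemoΔhepa asks what the added loss of TRAIL or TNFR1 changes where Nemo is already missing. In limma 0 serpins passed in NemoΔhepa/TRAIL-/- against NemoΔhepa, in NemoΔhepa/TNFR1-/- against NemoΔhepa or between the double knockouts, and 0.00562%, 0.0337% and 0.0478% of all probe sets did (2, 12 and 17 probe sets). At an unadjusted p under 0.05 there were 2, 7 and 6 serpins, against 4.04%, 6.86% and 5.03% of all probe sets. The smallest adjusted p of a serpin was 0.921, 0.431 and 0.438. Both comparisons with NemoΔhepa use the same NemoΔhepa arrays.

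Serpina11 came nearest. It was lower in NemoΔhepa/TNFR1-/- than in NemoΔhepa by -0.42 log2 units (95% interval -0.64 to -0.21, adjusted p = 0.431) and than in NemoΔhepa/TRAIL-/- by -0.56 (-0.81 to -0.32, adjusted p = 0.438), with no overlap between the groups. Such a lack of overlap was seen for 4420 and 6330 of all 35556 probe sets in these comparisons. Serpinb6b differed by -0.70 between NemoΔhepa/TNFR1-/- and NemoΔhepa/TRAIL-/- (-1.09 to -0.32, adjusted p = 0.639), and Serpina7 by -0.92 (-1.76 to -0.09, adjusted p = 0.964). Serpinb10 was 0.37 ± 0.09 higher in NemoΔhepa/TRAIL-/- than in NemoΔhepa (SE, adjusted p = 0.921). Serpinb1a was 0.52 higher in NemoΔhepa/TNFR1-/- than in NemoΔhepa (0.09 to 0.95, adjusted p = 0.672), and Serpinh1 was -0.17 ± 0.06 lower (adjusted p = 0.675). For Serpina12 the interval of the difference from NemoΔhepa ran from -1.13 to 0.84 in NemoΔhepa/TRAIL-/- and from -1.05 to 0.71 in NemoΔhepa/TNFR1-/-. The intervals are for single genes and take no account of the number of genes.

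The proteases that serpins act on changed in both directions. Of 33 measured target proteases 5 rose and 7 fell in NemoΔhepa, 4 and 5 in NemoΔhepa/TRAIL-/- and 4 and 3 in NemoΔhepa/TNFR1-/-. These counts were 6 and 6, 3 and 4, and 4 and 3 without WT replicate 3. In NemoΔhepa the largest rises were those of Plat, tissue plasminogen activator (1.64 ± 0.26, adjusted p = 0.00414), the lysosomal cathepsin S gene Ctss (1.45 ± 0.16, adjusted p = 0.000884) and the membrane protease matriptase, St14 (0.87 ± 0.17, adjusted p = 0.0115). The largest falls were those of the clotting factors F11 (-0.77 ± 0.16, adjusted p = 0.0144) and F7 (-0.76 ± 0.11, adjusted p = 0.00245) and of Hgfac, the activator of hepatocyte growth factor (-0.66 ± 0.10, adjusted p = 0.00321).

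A few pairs of serpin and target were picked after their values were seen. Klk7, the target of vaspin, differed by -0.04 in NemoΔhepa (adjusted p = 0.785, and -0.02 without WT replicate 3), where Serpina12 fell. Thrombin, F2, the target of antithrombin and heparin cofactor II, fell by 0.21 ± 0.05 in NemoΔhepa (adjusted p = 0.0446), a call lost without WT replicate 3 (adjusted p = 0.0875). Gzmb, granzyme B, rose by 0.58 ± 0.12 in NemoΔhepa/TNFR1-/- (adjusted p = 0.0148), where its inhibitor Serpinb9 differed by 0.21 (0.05 without WT replicate 3). Among 7 measured cofactors and receptors 1 rose and 1 fell in each genotype. Plaur, the urokinase receptor, rose by 0.45 ± 0.09 in NemoΔhepa (adjusted p = 0.012), and Proz, protein Z, fell by 0.35 ± 0.07 (adjusted p = 0.0172). Serpina10, the inhibitor that uses protein Z as its cofactor, differed by 0.04 (adjusted p = 0.806), and by 0.06 without WT replicate 3. In the comparisons among Nemo-deficient genotypes 0 of these proteases, cofactors and receptors passed in limma.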

How the data were processed

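Liver RNA of 11 samples was measured on 11 arrays. The deposited values are log2 signals of 35556 probe sets. Per the submitters' processing notes the authors used RMA, which normalizes the arrays together and summarises the probes of a set; the sources used here give no version. Groups are the labelled genotypes. limma 3.58.1 in R 4.3.3 fitted a mean for every group to the 11 arrays (residual degrees of freedom 7, prior 2.51), and two-sided p-values were adjusted by Benjamini-Hochberg within each of 6 comparisons. Probe sets were named through the platform annotation, and all 47 serpins matched RefSeq by gene ID. Every serpin called was named with its arrays' values, with 1 more per clade, and up to 3 proteases, cofactors and receptors per direction; others were named to account for a clade or paralog. The members and the 16 gene lists were chosen with earlier results of these data known. The few arrays limit the precision. Alternatives were other moderation, normalization, filters, thresholds and fits, and leaving out each array.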

Additional observations from a re-analysis of the deposited data

How the results depend on the processing

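No serpin that was called changed direction under any alternative. With an adjusted p below 0.01, 5, 5 and 4 serpins passed in NemoΔhepa, NemoΔhepa/TRAIL-/- and NemoΔhepa/TNFR1-/- against WT, in place of 9, 8 and 8. In fits of just the 2 groups compared, which have fewer samples, 3 passed in NemoΔhepa/TRAIL-/- and 5 in NemoΔhepa/TNFR1-/-. A fold of at least 1.5 in addition left 5 in NemoΔhepa/TRAIL-/-. Without 1 array at a time the counts ran from 6 to 9, 4 to 10 and 5 to 11. The 4 was without NemoΔhepa/TRAIL-/- replicate 1, and the 5 was without any of the 3 WT arrays or without NemoΔhepa/TNFR1-/- replicate 2 or 3. Among the Nemo-deficient genotypes 0 serpins passed under every alternative run. With the replicate number as a block, 8, 8 and 6 serpins passed against WT. No pairing by number was seen. Deviations of arrays with the same number correlated at -0.12 to 0.04 over 15 pairs, and those with different numbers at -0.16 to 0.16 over 30 pairs. Deviations were taken from means of 2 or 3 arrays, so the pairs depend on each other and cannot exclude a pairing. Where no cause is named, the cause was not tested. With 2 to 3 arrays a group, differences near 0.3 log2 units passed or failed by small margins, and serpins of low signal may be near background, which the table does not mark.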

Other observations

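The pseudogene Serpina4-ps1, the next measured gene after Serpina12 on chromosome 12, is not a member and spread more than any of them. It measured 11.11, 11.72 and 12.26 in WT, 10.81, 9.14 and 8.38 in NemoΔhepa, 11.08 and 6.73 in NemoΔhepa/TRAIL-/- and 6.85, 7.89 and 8.20 in NemoΔhepa/TNFR1-/-. Its differences from WT were -2.25 ± 1.0 (SE, adjusted p = 0.199), -2.79 ± 1.12 (adjusted p = 0.185) and -4.05 ± 1.0 (adjusted p = 0.0344), so that it was called in NemoΔhepa/TNFR1-/-, but not without WT replicate 3 (-3.77, adjusted p = 0.0932). In NemoΔhepa/TRAIL-/- the same array, replicate 2, was the low one for Serpina4-ps1 and for Serpina12 (4.81 against 6.27).

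The 2 probe sets shared by Serpina1a to Serpina1e differed by -0.11 and -0.09 in NemoΔhepa (adjusted p of 0.285 and 0.31; both -0.07 without WT replicate 3) and by -0.14 and -0.10 in NemoΔhepa/TNFR1-/- (adjusted p of 0.179 and 0.268). The 3 probe sets shared by Serpinb9d to Serpinb9g were not called in any comparison.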
